A study of Mus musculus with 4 samples.

Results

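The epithelial-mesenchymal transition (EMT) group described here comprises 10 mouse genes, which are the transcription factors Snai1, Snai2, Twist1, Twist2, Zeb1 and Zeb2, the classical cadherins Cdh1, Cdh2 and Cdh3, and the intermediate filament gene Vim. They were taken by gene name from the probes of a mouse expression array, which carried 39429 probes other than controls and 31896 gene names. The 10 genes had 12 probes, with 2 each for Zeb2 and Cdh2 and 1 for each of the others. For Zeb2 and Cdh2, the probe with the higher mean over the 4 arrays stands for the gene, and the other one is given beside it.

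EMT is the programme by which epithelial cells lose their junctions and polarity and gain motility. SNAIL, TWIST and ZEB family factors drive it, and SNAIL and ZEB proteins repress the E-cadherin gene Cdh1 by binding E-box letters in its promoter. Exchange of E-cadherin for N-cadherin (Cdh2) at the cell surface is called the cadherin switch and usually goes with a gain of vimentin, and in mammary gland P-cadherin (Cdh3) and Snai2 are known from the basal layer. PAK1, the kinase removed in the study, is known to phosphorylate SNAIL.

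Total RNA was measured on 4 one-colour (Cy3) Agilent arrays, 2 labelled Pak1-/- and 2 labelled Pak1+/+. All 4 samples were tumour-derived breast cancer cells of MMTV-Neu mice, whose Neu (Her2) oncogene is expressed in mammary epithelium from the promoter of the mouse mammary tumour virus (MMTV). All were grown in low calcium medium with horse serum, starved of serum for 3 h and given EGF for 15 min, so that both groups carried the transgene and were stimulated, and no unstimulated sample was analysed here. The design text gives different tumours as the source of the cells of each group, while the study describes cell lines derived from tumours, and neither strain nor age is given, so p-values measure the spread between these 2 samples a group, which may be partly technical.

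The 4 arrays lay on 1 slide and were scanned together. Positions 1 and 2 held the samples labelled Pak1-/- and positions 3 and 4 those labelled Pak1+/+, and the effects of slide position and of genotype cannot be told apart. Between 62.2% and 70.4% of probes were well above background on an array, and values correlated across probes at 0.997 within either group and at 0.954 to 0.959 between groups. The targeted gene did not mark the groups. The Pak1 probe read 12.21 and 12.25 under the Pak1-/- label against 12.04 and 12.04 under the Pak1+/+ label (normalized log2 intensity), a difference of 0.19 ± 0.07 (SE, limma adjusted p = 0.070). Whether this probe lies inside the deleted segment is not given in the sources used here, so it does not check the labels. Groups are therefore named by their labels throughout. Erbb2, the gene of the Neu oncogene, was 0.31 ± 0.07 lower in the arrays labelled Pak1-/- (limma adjusted p = 0.020). That call was lost when Pak1-/- replicate 1 or either Pak1+/+ replicate was left out (-0.33 to -0.28). Whether the Erbb2 probe reads the transgene is not given in the sources used here, so the value is not read as the level of the oncogene.

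The promoters of the EMT genes are shown because the E-box letters bound by SNAIL and ZEB proteins can be read in them. The letters searched were CACCTG on either strand, which reads CAGGTG on the opposite one. RefSeq windows on GRCm38.p6 matched 5 of the 10 genes (Snai1, Twist1, Twist2, Zeb2 and Vim), while Snai2, Zeb1, Cdh1, Cdh2 and Cdh3 had no entry in the table. Snai1, Twist1 and Vim, 3 genes whose transcripts differed between the groups, are printed with the 250 bases before the gene start, at chr2:167537945-167538194, chr12:33957421-33957670 and chr2:13574061-13574310, each on the plus strand, 5′ to 3′, with any E-box in capitals.
Snai1: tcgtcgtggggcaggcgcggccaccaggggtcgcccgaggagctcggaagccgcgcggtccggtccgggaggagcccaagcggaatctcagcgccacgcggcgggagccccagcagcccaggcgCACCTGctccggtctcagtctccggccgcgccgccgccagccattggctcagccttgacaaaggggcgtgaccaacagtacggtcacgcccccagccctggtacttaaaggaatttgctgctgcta
Twist1: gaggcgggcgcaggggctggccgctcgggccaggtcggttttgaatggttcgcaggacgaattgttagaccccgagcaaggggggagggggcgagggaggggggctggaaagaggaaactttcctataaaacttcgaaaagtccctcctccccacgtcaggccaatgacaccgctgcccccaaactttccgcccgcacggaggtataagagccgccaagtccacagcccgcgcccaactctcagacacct
Vim: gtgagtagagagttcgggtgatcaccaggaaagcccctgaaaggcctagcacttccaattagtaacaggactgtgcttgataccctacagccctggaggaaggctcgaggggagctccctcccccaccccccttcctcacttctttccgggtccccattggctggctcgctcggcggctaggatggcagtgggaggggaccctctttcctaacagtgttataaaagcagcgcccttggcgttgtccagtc
The Snai1 window held 1 match, at positions -126 to -121 from the gene start. The Twist1, Twist2 and Vim windows and the 4 windows of Zeb2 held 0. Across all 32851 windows of the same length in the table, 17.2% held the letters on either strand, so a single match among these genes is near that share. A match is a description of the letters and not a binding site.

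Of the 10 genes, 8 were bright enough (2 or more of the 4 arrays well above background) to enter the array-wide limma fit. Snai1, Snai2, Cdh1, Cdh2 and Vim were higher in the arrays labelled Pak1-/-, and Twist1 was lower. Zeb1 and Zeb2 did not pass the threshold, and Twist2 and Cdh3 were too dim to be tested. These 5 higher and 1 lower of 8 stand against a background in which 51% of 22006 genes tested passed the same threshold (adjusted p of 0.05), 22.8% higher and 28.2% lower. Counted by probe, 6 of the 9 probes tested were higher and 1 was lower, where 51.9% of 27229 probes passed, 23.3% higher and 28.6% lower. The balance of the background turned under cyclic loess, with 7324 probes higher and 6647 lower against 6349 and 7783 here. Snai2 was tested only through the group in which it was bright, so the count of tested genes is no support by itself. Markers of myoepithelial cells were higher on the same arrays (sums of 91829 and 101924 against 19663 and 20172 intensity units), and their part in these differences was not tested. In bulk RNA of this kind, fewer cells of a type and less RNA per cell cannot be told apart.

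**Figure D1:**
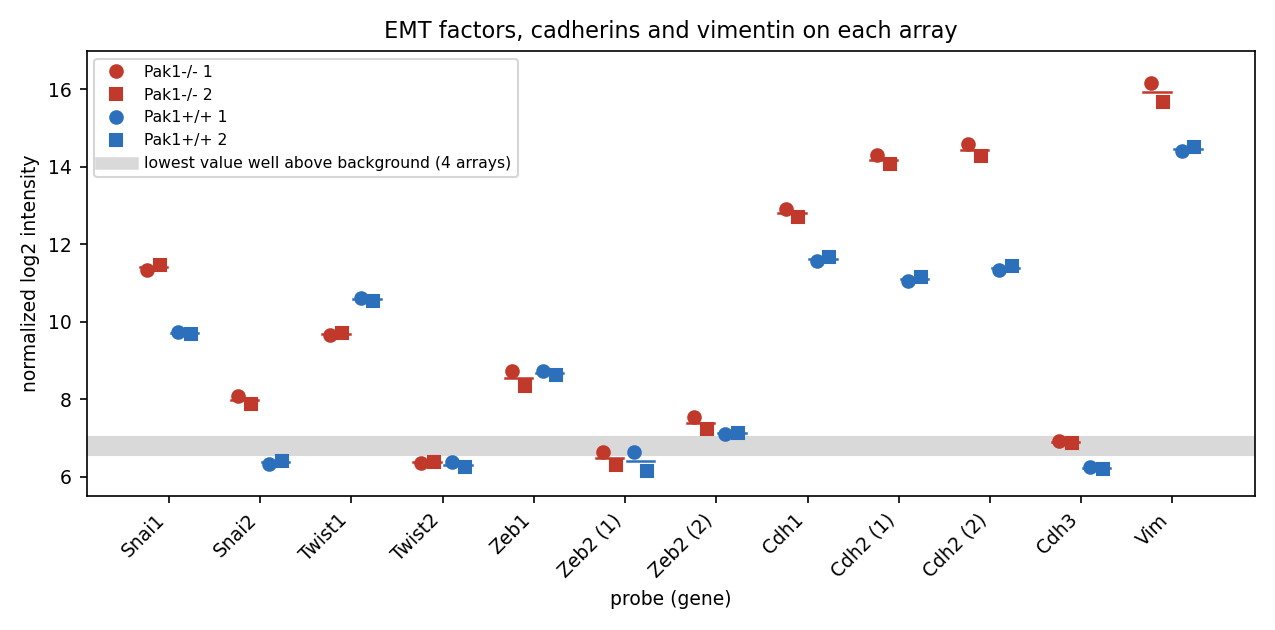
Normalized log2 intensity (vertical axis) of all 12 probes of the EMT genes on each array, with red for the arrays labelled Pak1-/-, blue for Pak1+/+ and a line at each group mean. The grey band spans, over the 4 arrays, the lowest value that was well above background, 6.55 to 7.03; Twist2, Cdh3 and the first Zeb2 probe lie in or below it on every array, and both Cdh2 probes show the widest gap.

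Snai1 encodes SNAIL, the zinc-finger repressor of E-cadherin that GSK3B marks for degradation. Its probe (chr2:167368073-167368132 on mm9, the build of all probe positions here) read 11.33 and 11.48 under the Pak1-/- label against 9.75 and 9.69 under the Pak1+/+ label on the normalized log2 scale. Before any correction the spots measured 2512 and 2952 against 853 and 781 intensity units. The groups did not overlap, and the gap between them was many times the distance between replicates, but 77.6% of all genes tested (78.2% of probes) also had groups that did not overlap. Snai1 was 11.41 ± 0.10 against 9.72 ± 0.04 (mean ± SD, n = 2), a rise of 1.69 ± 0.08 (SE) on the log2 scale or 3.22-fold, with a 95% interval of 1.47 to 1.91 and a limma adjusted p of 0.00031. Among the genes tested, 5.00% differed by more in either direction.

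Snai2 encodes SLUG, the SNAIL relative of basal mammary cells. The probe (chr16:14709361-14709420) read 8.08 and 7.86 under the Pak1-/- label against 6.32 and 6.41 under the Pak1+/+ label. It was well above background on both arrays of the first group and on neither of the second, so the size of its difference has only a lower bound. Under the Pak1-/- label Snai2 was higher by at least 2.15-fold. That bound sets the mean of the bright group against the lowest signal well above background on each array of the dim one. The limma adjusted p of 0.00059 is of a fit that Snai2 entered only through its bright group, so no fold beyond the bound is read from it.

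Twist1, a basic helix-loop-helix factor that promotes EMT and metastasis, moved the other way. Its probe (chr12:34644411-34644470) read 9.64 and 9.70 under the Pak1-/- label against 10.62 and 10.54 under the Pak1+/+ label. All 4 values were well above background and the groups did not overlap. Twist1 fell by 0.90 ± 0.07 (SE) on the log2 scale in the arrays labelled Pak1-/-, from 10.58 ± 0.05 to 9.67 ± 0.04 (SD, n = 2), which is 1.87-fold lower with a limma adjusted p of 0.0011. A larger difference was seen for 15.5% of genes tested.

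The related factor Twist2 stayed near background. Its probe (chr1:93744519-93744577) lay between 6.24 and 6.39 and was not well above background on any of the 4 arrays, so it was not tested.

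The ZEB factors, E-box repressors that hold mesenchymal cells in that state and are kept down by the miR-200 family in epithelium, did not pass the threshold. Zeb1 (probe at chr18:5774613-5774672) read 8.73 and 8.34 under the Pak1-/- label against 8.72 and 8.62 under the Pak1+/+ label. The groups overlapped, and the difference of -0.13 ± 0.15 (SE) had a 95% interval of -0.52 to 0.26 on the log2 scale (limma adjusted p = 0.49). Its sign turned to 0.06 when Pak1-/- replicate 2 was left out. The interval holds no change as large as that of Twist1, but it does not show that the groups were alike.

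Zeb2 had probes at chr2:44842774-44842833 and chr2:44840038-44840097. The brighter one read 7.54 and 7.24 under the Pak1-/- label against 7.10 and 7.14 under the Pak1+/+ label, and was well above background on 3 of the 4 arrays. These values did not overlap, but their difference of 0.27 ± 0.12 (SE, 95% interval -0.04 to 0.59) missed the threshold (limma adjusted p = 0.12). Without Pak1-/- replicate 2 it was 0.42 and passed, in a fit whose lone Pak1-/- array is assumed to vary like the other group. The other Zeb2 probe was at 6.14 to 6.64 and did not rise well above background anywhere.

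**Figure D2:**
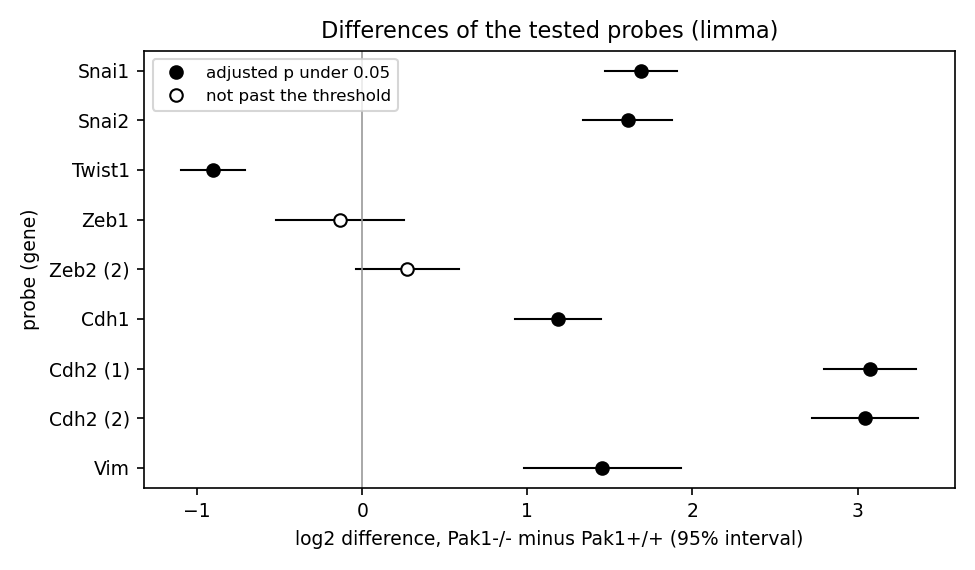
Log2 difference between groups (horizontal axis, Pak1-/- minus Pak1+/+) of the 9 tested probes of the EMT genes, with 95% intervals from limma; filled points passed the adjusted threshold. The 2 Cdh2 probes lie near 3, Twist1 is the one filled point below 0, and the intervals of Zeb1 and Zeb2 cross 0. The point of Snai2 is a fitted value against a group not well above background.

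Cdh1 encodes E-cadherin, the adhesion molecule of epithelial junctions. Its probe (chr8:109193812-109193871) was printed as 10 spots on every array, with means of 12.91 and 12.70 under the Pak1-/- label against 11.57 and 11.67 under the Pak1+/+ label. No spot of one group reached the range of the other. Cdh1 was 12.81 ± 0.14 against 11.62 ± 0.07 (SD, n = 2), a rise of 1.19 ± 0.10 (SE, log2; 95% interval 0.92 to 1.45) or 2.27-fold with a limma adjusted p of 0.0012. Snai1 and Snai2, which encode repressors of this gene, were higher in the same arrays in which Cdh1 transcript was higher.

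Spots of the Cdh1 probe also gave a direct view of the error within an array. The 10 spots spanned 12.77 to 13.03 and 12.60 to 12.76 on the arrays labelled Pak1-/-, and 11.51 to 11.65 and 11.60 to 11.75 on those labelled Pak1+/+. Their SD within an array was 0.05 to 0.08. The 10 spots of an array share 1 labelled RNA and were averaged before the test.

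**Figure D3:**
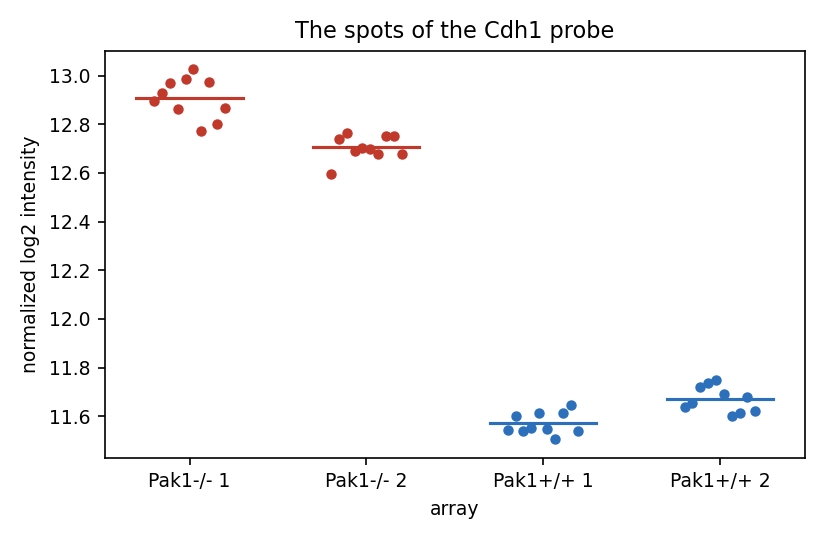
Normalized log2 intensity (vertical axis) of the 10 spots of the E-cadherin (Cdh1) probe on each array (horizontal axis), with a line at the array mean. The lowest spot of the arrays labelled Pak1-/-, 12.60, lies above the highest of those labelled Pak1+/+, 11.75.

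Cdh2 encodes N-cadherin, the cadherin of neural and mesenchymal cells. It showed the largest difference among the EMT genes tested. Its brighter probe (chr18:16747559-16747618) read 14.58 and 14.28 under the Pak1-/- label against 11.34 and 11.43 under the Pak1+/+ label. The second probe (chr18:16747386-16747445) read 14.30 and 14.06 against 11.06 and 11.15. Both probes were well above background on all 4 arrays, the groups were far apart on each, and the probes lie close together on the chromosome.

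By its brighter probe Cdh2 was 14.43 ± 0.21 against 11.39 ± 0.07 (SD, n = 2), a rise of 3.05 ± 0.12 (SE, log2; 95% interval 2.73 to 3.37) or 8.26-fold with a limma adjusted p of 0.00019. The second probe gave 3.08 ± 0.11 (SE, limma adjusted p = 0.00014), so both probes of the gene returned nearly the same size. Only 298 genes (1.35% of those tested) differed by more.

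Set against each other within an array, Cdh2 minus Cdh1 was 1.67 and 1.58 under the Pak1-/- label against -0.23 and -0.24 under the Pak1+/+ label (log2 units). Probes differ in how they hybridize, so the sign of that quantity on 1 array carries no meaning and its change between groups is what is read. The change was 1.86, so that Cdh2 rose 3.63-fold more than Cdh1. Both cadherin transcripts were higher in the arrays labelled Pak1-/-, and unequally so.

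Cdh3 encodes P-cadherin, whose gene neighbours Cdh1 on chromosome 8. The probe (chr8:109079933-109079992) read 6.92 and 6.86 under the Pak1-/- label against 6.24 and 6.20 under the Pak1+/+ label. These values did not overlap, but only Pak1-/- replicate 1 was well above background, so the gene was not tested. Against the lowest signals well above background, the Pak1-/- mean of Cdh3 was 1.02-fold higher, close to no change. That mean includes an array not well above background, so no rise is read from it.

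Vim encodes vimentin, the intermediate filament of mesenchymal cells. Its probe (chr2:13504232-13504291) read 16.17 and 15.68 under the Pak1-/- label against 14.42 and 14.52 under the Pak1+/+ label. Its spots measured 66060 and 53592 against 22926 and 23553 intensity units before correction, and none was flagged as saturated. Vim was 15.92 ± 0.35 against 14.47 ± 0.08 (SD, n = 2), a rise of 1.45 ± 0.18 (SE, log2; 95% interval 0.98 to 1.93) or 2.74-fold with a limma adjusted p of 0.0033. Its pair of Pak1-/- values lay farther apart than those of any other EMT gene tested, and they still did not reach the other group.

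The genes around these factors and cadherins were read from lists of their pathway partners, each gene by its brightest probe in the same fit. Over all 22006 genes tested the median difference was -0.05 log2 units, and the counts in each list are to be read against the 22.8% higher and 28.2% lower of all genes. Of 12 other EMT transcription factors, 10 were tested, of which 3 were higher and 4 lower, with a median difference of 0.09. Among the higher ones Klf8, named after its values were seen, entered the test only through its bright group. Hmga2, a chromatin factor able to induce Snai1, fell by 2.42 ± 0.08 (SE, log2, limma adjusted p = 0.00012), and Foxc2, a forkhead factor, by 0.70 ± 0.09. Sox4, an activator of EMT genes, was 1.03 ± 0.08 higher.

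Among 16 cofactors and degradation factors of SNAIL and ZEB, all tested, 6 were higher, 4 lower and 6 did not pass (median 0.14). Kdm1a, the demethylase LSD1 that SNAIL recruits, was higher by 1.42 ± 0.08 (SE, log2, limma adjusted p = 0.00038), at 14.24 and 14.15 against 12.75 and 12.81. Hdac1, a histone deacetylase of the same complex, was higher by 1.06 ± 0.07, and Ajuba (listed as Jub on the array), a LIM protein that binds SNAIL, by 1.03 ± 0.10. Fbxl14, a ubiquitin ligase subunit that marks SNAIL for degradation, fell by 1.07 ± 0.09 (limma adjusted p = 0.0011). The other degradation genes of the list, named after their values were seen, were mixed. Gsk3b rose by 0.97 ± 0.14 (limma adjusted p = 0.0057) and Btrc by 0.34 ± 0.08, Fbxl5 fell by 0.59 ± 0.08, and Fbxo11 did not pass.

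Of 12 regulators that maintain the epithelial state, 5 were higher, 4 lower and 3 did not pass (median 0.03). Klf4 rose by 1.97 ± 0.07 (SE, limma adjusted p = 0.00014), from 8.54 and 8.56 to 10.53 and 10.52, while its relative Klf5 fell by 1.45 ± 0.12. Of the grainyhead factors, Grhl1 was lower (-1.23 ± 0.12), and Grhl2 (0.30 ± 0.08, limma adjusted p = 0.036), named after its values were seen, and Grhl3 (1.13 ± 0.34, limma adjusted p = 0.045) were higher. The Grhl3 call was lost in 4 of the 14 alternative analyses, over all of which its difference ran from 0.64 to 1.63. Its values of 7.85 and 8.84 in the arrays labelled Pak1-/- lay far apart. Between 2 and 3 of these regulators were higher when 1 array was left out.

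The complex that ties cadherins to actin showed 4 of 13 genes higher, 2 lower and 7 not past the threshold (median 0.14). Nectin3 (Pvrl3 on the array), an adhesion molecule that acts beside cadherins, was 2.28 ± 0.08 higher (SE, limma adjusted p = 0.00015), at 11.18 and 11.06 against 8.88 and 8.79. Ctnnd1, the p120 catenin that keeps cadherins at the membrane, was 0.77 ± 0.08 higher, and vinculin (Vcl) 0.61 ± 0.12 higher, a call lost without Pak1+/+ replicate 2 at nearly the same size (0.56), with fewer arrays in the fit. Plekha7, a partner of p120, was 0.72 ± 0.14 lower, a call lost without either Pak1-/- replicate (-0.72 to -0.71). Without Pak1+/+ replicate 2 the higher genes numbered 2, and without either Pak1-/- replicate the lower ones numbered 1. Of 10 other cadherins, 7 were tested, and only Cdh10, a type II cadherin, passed, higher by 1.24 ± 0.08 (limma adjusted p = 0.00063). With the authors' log2 values 2 of these cadherins were higher and 0 lower.

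Of 20 epithelial markers 6 were higher (30%), 5 lower (25%) and 9 not past the threshold (median 0.01), which is near the shares over all genes tested. The tight junction gene Ocln fell by 1.12 ± 0.13 (SE, limma adjusted p = 0.0031) and the keratin Krt7 by 1.10 ± 0.07. Tjp3, a junction scaffold, rose by 0.85 ± 0.08 and Prss8, a membrane serine protease, by 0.64 ± 0.12. The count of higher markers was 2 on processed signals scaled to the 75th percentile, and 3 without Pak1-/- replicate 2 or Pak1+/+ replicate 2.

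Of 20 mesenchymal markers, 14 were tested, with 8 higher, 2 lower and 4 not past the threshold. The 8 include Postn, which entered the test only through its bright group, and with all 4 arrays required to be well above background 6 were higher and 2 lower (median 1.12). Their median of 0.81 was 0.15 with every probe admitted, because 6 dim genes then counted, and 1.40 without Pak1+/+ replicate 1. Fn1, the matrix protein fibronectin, read 17.11 and 16.24 under the Pak1-/- label against 9.92 and 10.21 under the Pak1+/+ label, a rise of 6.61 ± 0.31 (SE, log2, limma adjusted p = 0.00027). Sparc, another matrix glycoprotein, rose by 3.32 ± 0.19. Postn (periostin) was not well above background on either array labelled Pak1+/+ and was at least 10.4-fold higher in the others. That bound was 6.91-fold without Pak1-/- replicate 1, 15.7-fold without Pak1-/- replicate 2 and 23.9-fold on processed signals scaled to the 75th percentile.

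Tnc (tenascin C) read 11.31 and 9.97 against 6.93 and 8.76, a difference of 2.79 ± 0.75 (SE, limma adjusted p = 0.033). Over the 14 alternatives the difference ran from 1.88 to 3.70, and the call was lost in 5. The dimmer Tnc probe, not well above background under the Pak1+/+ label, read 10.70 and 9.44 against 6.27 and 6.21, a bound of at least 9.19-fold. Its Pak1-/- values lay far apart (SD 0.89), so the bound depends on which array is used. As that probe entered the fit only through its bright group, no call is read from it. The 2 lower mesenchymal genes were the receptor kinase Axl (-1.65) and the matrix metalloproteinase Mmp2 (-1.15), named here after their values were seen.

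**Figure D4:**
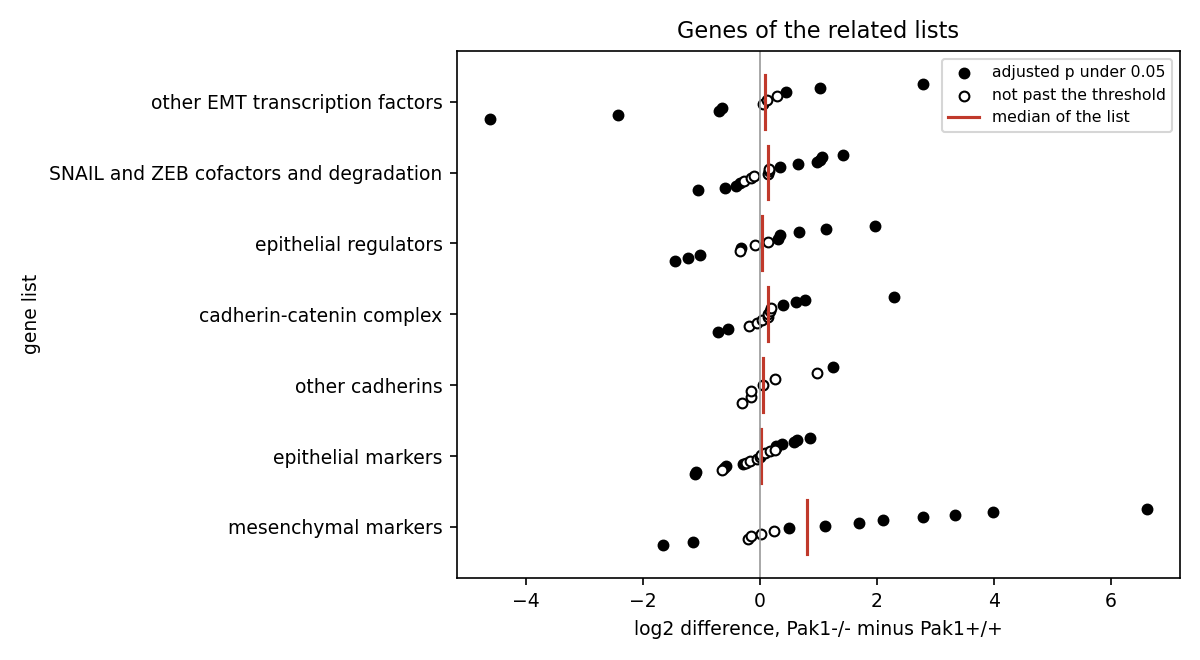
Log2 difference (horizontal axis, Pak1-/- minus Pak1+/+) of every tested gene of the 7 related lists (vertical axis), filled where the adjusted p passed 0.05, with a red line at each list's median. Medians lie between 0.01 and 0.14 except for the mesenchymal markers (0.81), whose points run from -1.65 to 6.61.

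Markers of the cell types a mammary tumour culture could hold were summed per array on the linear scale of normalized intensity. Luminal markers, led by Krt18 and Krt8, were well above background on all arrays for 9 of 10 genes, with sums of 1237800 and 1265180 under the Pak1-/- label against 1059600 and 1041240 under the Pak1+/+ label. Of these luminal genes, 4 were higher and 0 lower. Marker counts here and below are to be read against 22.8% higher and 28.2% lower of all genes tested. The luminal genes that did not pass, such as Elf5 (-0.35) and Epcam (-0.23), all had negative differences. Elf5 and Epcam were named after their values were seen. The cultures thus carried the luminal epithelial transcripts that the label of breast cancer cells calls for, on all 4 arrays.

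Most myoepithelial (basal) markers were higher in the arrays labelled Pak1-/-, as were Cdh1, Cdh2, Vim, Snai1 and Snai2, while Twist1 was lower. The myoepithelial sums were 101924 and 91829 under the Pak1-/- label against 20172 and 19663 under the Pak1+/+ label. Of the 8 genes tested, 7 were higher. The basal keratins Krt17 and Krt14 rose by 4.92 ± 0.18 and 2.83 ± 0.07 (SE, log2), and the basal factor Trp63 by 0.43 ± 0.09. The contractile gene Myh11 stayed at background on each of the 4 arrays. Other contractile genes, named after their values were seen, did not all do so. Acta2, also counted among the mesenchymal markers, rose by 1.69 ± 0.19 and Mylk by 1.13 ± 0.10, while Cnn1 did not pass (0.04 ± 0.12). The part of these transcripts in the differences of the EMT genes was not tested.

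Fibroblast markers were low on all 4 arrays. Their sums were 1929 and 1737 under the Pak1-/- label against 1980 and 1375 under the Pak1+/+ label, and Pdgfrb, Dcn, Lum, Dpt and Col3a1 were not well above background on any of the 4 arrays. Of the 4 fibroblast genes tested only Col1a1 passed, higher by 1.12 ± 0.16 (SE, log2, limma adjusted p = 0.0051). The sums overlapped through 1 value, that of Fap at 9.37 on Pak1+/+ replicate 1 against 6.57 on its replicate, and without Fap, a sum taken after its values were seen, they were 1631 and 1441 against 1318 and 1280 and did not overlap. The part of these transcripts in the differences of the EMT genes was not tested.

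Endothelial sums overlapped at 10311 to 10673 against 9403 to 11156, with Tek, Tie1, Emcn and Cldn5 dim throughout. Leukocyte sums were 52511 and 75176 against 43926 and 48450, with Lyz2 and Laptm5 dim on all arrays. Of the 6 tested genes 2 were lower and 0 higher, where 28.2% of all genes tested were lower and 22.8% higher. Itgam, an integrin subunit, carried most of the leukocyte sums (16.07 and 15.51 against 15.39 and 15.20 on the log2 scale) and did not pass (0.49 ± 0.21, SE, limma adjusted p = 0.11). Adipocyte sums were 470 to 472 against 518 to 521, with Adipoq and Lep dim on all arrays. The part of leukocyte transcripts in the results was not tested.

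**Figure D5:**
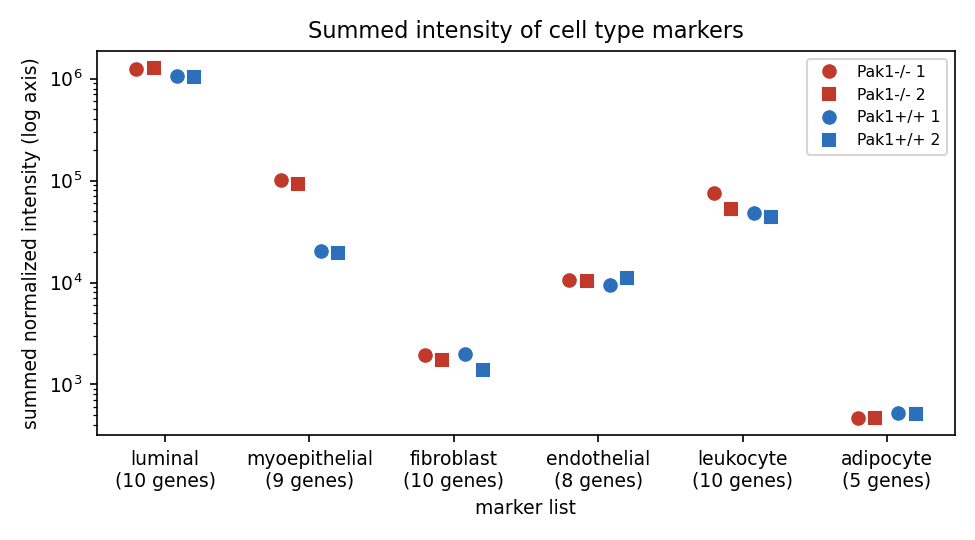
Summed normalized intensity (vertical axis, log scale) of the markers of 6 cell types on each array. The myoepithelial sum is 91829 or more on both arrays labelled Pak1-/- and 20172 or less on both labelled Pak1+/+, while fibroblast and endothelial sums overlap between the groups, the former only with Fap counted.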

How the data were processed

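Each array has a deposited scanner file of spot intensities (linear) and local background, made per the file headers with Feature Extraction 9.5.3.1 (9.5 in the submitters' processing notes), not normalized between arrays, with probe positions on mm9. The authors also deposited log2 values of the same arrays, background corrected and quantile normalized per their methods, with 24008 rows filled and 10 of the 12 EMT probes present. Their offset and filter are not given in the sources used here, and this table served as an alternative.

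Intensities were corrected by normexp (offset 50), log2 transformed and quantile normalized in limma 3.58.1 (R 4.3.3) without control spots, and spots of a probe were averaged. Kept were the probes that at least 2 of 4 arrays showed well above background (27229 of 39429, 69.1%). Genotype was fitted with lmFit and eBayes (two-sided, residual df 2, prior df 2.62) and p-values were adjusted over all probes kept (Benjamini-Hochberg, threshold 0.05). An exact permutation test of 2 against 2 cannot give a p under 0.333 and was not used. The small number of arrays limits the precision.

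List genes were named through RefSeq (GRCm38.p6), which matched 26055 of 32334 probes with an accession. The EMT genes were taken by the array's own gene names. Every EMT gene is reported with all probes. From each list the text names up to 4 genes past the threshold with the largest difference among those well above background on all arrays, plus any with a bound of at least 8-fold, and markers by summed intensity. A few genes that this rule picks are not reported here. The members and lists were chosen with earlier results of these data known. The 14 alternatives covered offset, scaling, filter, table, variance trend, replicate block, each array left out and the mean over a gene's probes. Simulated data of 27215 probes held 100 changes of 1 log2 unit, 100 of 2 log2 units and no other difference. Of these, 49 and 85 were recovered, with 2 false calls. On the real arrays 51.9% of probes passed, a share on which the adjusted threshold depends. The simulated figures therefore do not give the recovery of this comparison.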

Additional observations from a re-analysis of the deposited data

How the results depend on the processing

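Snai1, Twist1, Cdh1, Cdh2 and Vim kept their direction and passed the threshold in all 14 alternatives. Differences ran from 1.62 to 1.82 for Snai1, -0.94 to -0.81 for Twist1, 1.08 to 1.29 for Cdh1, 2.90 to 3.19 for Cdh2 and 1.21 to 1.70 for Vim. Snai2, not well above background on the arrays labelled Pak1+/+, had no value where all 4 arrays had to be bright, and its lower bound ran from 1.92-fold to 4.19-fold, the highest on processed signals scaled to the 75th percentile. Zeb1 turned to 0.062 without Pak1-/- replicate 2 (limma adjusted p = 0.603; range over alternatives -0.33 to 0.06), and Zeb2 passed without that array at 0.42 (limma adjusted p = 0.029; range 0.12 to 0.63). The causes were not tested. Among the EMT genes 4 to 6 were higher and 1 was lower in every alternative. The sixth was Zeb2 without that array, and otherwise Cdh3, which passed in the authors' log2 table (0.86, limma adjusted p = 0.0023) and with every probe admitted (0.67, limma adjusted p = 0.0046), each against a group not well above background. Where 1 array was left out, the lone array of its group was assumed to vary like the other group. The array-wide count was 14132 probes and ran from 10307 to 14578.

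Replicate numbers in the labels were shared between groups, and the labels do not say whether they pair the samples. The deviations of same-numbered arrays correlated at -0.03 across probes, which shows no shared deviation but does not settle whether the samples were paired. With the replicate block 13211 probes were called, and the 5 higher and 1 lower EMT genes were counted as before. Pak1 passed only under cyclic loess (0.27). With 2 arrays a group, the size of a change in probes near background, such as Twist2, Cdh3 and Zeb2, is poorly bounded here.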

Other observations

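Genes outside the lists whose 4 normalized values ran closest to those of the EMT genes were sought by root mean square distance of the array-centred log2 values over 14401 genes and 4 arrays, as a description only. Nearest to Cdh2 were Mt2, a metallothionein (distance 0.04, difference 3.07) and Wnt5b, a secreted WNT ligand (0.04, 3.095). Nearest to Snai1 were C2cd4d (0.02, 1.69), the mitochondrial carnitine transferase gene Cpt1a (0.02, 1.72) and the lysosomal lipase gene Lipa (0.02, 1.73). Col11a1, a fibrillar collagen (0.03, 1.40), C5ar2, a complement receptor (0.03, 1.49) and Lce1i (0.04, 1.45) lay nearest to Vim. With 4 arrays in 2 groups these distances mostly hold the difference between groups and the spread of the replicates.

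Klf8, a Krüppel-like repressor of E-cadherin counted among the other EMT factors and singled out after its values were seen, read 9.68 and 9.26 on the arrays labelled Pak1-/- and was not well above background at 6.65 and 6.74 on those labelled Pak1+/+, a rise of at least 6.08-fold. Loxl2, a lysyl oxidase that binds SNAIL, was likewise noted after its values were seen, because its probes disagreed. The brightest, on chromosome 14, differed by -0.10 (limma adjusted p = 0.44) with groups that overlapped. Of the dimmer probes, one on that chromosome, not well above background under the Pak1+/+ label, was higher by at least 3.14-fold, another there differed by 0.25 (limma adjusted p = 0.081), and one placed on chromosome 2 was lower (-0.26, limma adjusted p = 0.043).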
